A study of Mus musculus with 18 samples.

Results

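The p53 targets and growth arrest genes described here are Trp53, Mdm2, Cdkn1a, Ccng1, Btg2, Gadd45a, Gadd45b, Gadd45g, Plk3 and Phlda3. They were taken by symbol, from a list drawn up with earlier results of these data known, and are 10 of the 56691 genes in the deposited table. All 10 passed the filter on low counts, which left 14595 genes. Their levels were measured by RNA sequencing of liver from wild-type mice of the C57BL/6 strain, with 6 libraries in each of 3 groups. In the IR-Ori group, clips on the portal triad stopped the blood flow to about 70% of the liver for 1 h, and flow then returned for 6 h. These mice also received oridonin, a plant diterpenoid that the herb Isodon rubescens makes, and the sources used here do not give its dose, route or timing. The IR group had the same ischemia and reperfusion without oridonin. The sham group had anaesthesia and laparotomy without clipping. The sources used here do not give the age or sex of the mice.

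p53, the protein of Trp53, is a transcription factor that is kept scarce by the ubiquitin ligase MDM2 and is stabilised after DNA damage, low oxygen and other stress. Because its control is mainly at the protein level, Trp53 mRNA is a poor guide to its activity, and the mRNA of its target genes is the usual readout. Cdkn1a, which encodes the cyclin-dependent kinase inhibitor p21, is the classic target and slows the entry of hepatocytes into the cell cycle after liver injury. Many of these genes, among them Cdkn1a, Btg2, Plk3 and the Gadd45 family, are also switched on by stress kinases, cytokines and growth factors without p53.

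The start regions of the members are shown because the genes differ there in whether a full site for p53 itself lies close by. The windows come from RefSeq on build GRCm38.p6, an older build than the GRCm39 of the count table, and run from 250 bases before to 50 after an annotated start, read 5′ to 3′ on the strand of the gene. All 10 members were matched, with 11 windows, since Cdkn1a has a pair of annotated starts. A full p53 site, taken as a pair of adjoining half-sites with at most 2 mismatches over 20 bases, was found on either strand in 0.798% of all 32851 windows. It lay in the window of the upstream Cdkn1a start, chr17:29090729-29091028 on the plus strand, 51 to 32 bases before that start with 1 mismatch. The window of the downstream Cdkn1a start, chr17:29093519-29093818, held no full site and is not shown. The other full site was in Ccng1, chr11:40755237-40755536 on the minus strand, 195 to 176 bases before the start, also with 1 mismatch. Btg2, chr1:134079106-134079405 on the minus strand, held instead a cyclic AMP response element, TGACGTCA, 166 to 159 bases before the start, a motif found in 1.79% of windows. Capitals mark the p53 site in the upstream Cdkn1a window and the Ccng1 window, and the cyclic AMP response element in the Btg2 window.
Cdkn1a: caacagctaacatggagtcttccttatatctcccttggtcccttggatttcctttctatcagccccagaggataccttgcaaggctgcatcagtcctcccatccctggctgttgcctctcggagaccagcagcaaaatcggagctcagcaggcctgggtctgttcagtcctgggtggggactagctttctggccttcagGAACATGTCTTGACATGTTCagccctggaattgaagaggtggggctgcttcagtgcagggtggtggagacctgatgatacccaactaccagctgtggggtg
Ccng1: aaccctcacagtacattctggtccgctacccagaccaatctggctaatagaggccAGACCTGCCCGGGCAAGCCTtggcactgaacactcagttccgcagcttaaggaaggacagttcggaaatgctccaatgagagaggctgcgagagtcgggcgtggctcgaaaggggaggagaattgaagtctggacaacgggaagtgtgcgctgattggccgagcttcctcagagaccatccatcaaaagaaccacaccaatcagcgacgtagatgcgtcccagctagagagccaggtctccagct
Btg2: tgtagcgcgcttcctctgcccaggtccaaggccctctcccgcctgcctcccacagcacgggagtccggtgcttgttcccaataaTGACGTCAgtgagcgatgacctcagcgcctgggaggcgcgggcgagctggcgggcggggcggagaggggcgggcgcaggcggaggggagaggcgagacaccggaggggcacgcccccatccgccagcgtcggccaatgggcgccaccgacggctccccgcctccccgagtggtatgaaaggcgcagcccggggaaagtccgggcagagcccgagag
The AP-1 site TGANTCA was in none of the 11 windows and in 7.81% of all windows. The CArG box, the site of serum response factor, was also in none of the 11, against 1.63% of all windows. A TATAAA box lay 46 bases before the Gadd45b start and 27 bases before the Gadd45g start on the gene's own strand, and 13.6% of all windows held one on either strand. The windows of Gadd45a and Gadd45b are also shown, since only Gadd45a was called in IR-Ori against IR. That difference between these sister genes did not itself pass a test (given with the ratios of the family). Capitals mark the TATAAA box of Gadd45b, and half-sites alone, such as that of Gadd45a given next, are not in capitals. Whether the start regions bear on the calls was not tested. At least 1 exact p53 half-site was in 5 of the 11 windows and in 8.36% of all windows. In the upstream Cdkn1a window and in Ccng1 the full site includes an exact half-site. That Cdkn1a window held a further exact half-site 73 to 64 bases before its start. In Gadd45a a half-site lay 40 to 31 bases before the start, and the windows of Mdm2 and Trp53 held one each. The Gadd45a window is chr6:67037358-67037657 on the minus strand, and that of Gadd45b is chr10:80929841-80930140 on the plus strand.
Gadd45a: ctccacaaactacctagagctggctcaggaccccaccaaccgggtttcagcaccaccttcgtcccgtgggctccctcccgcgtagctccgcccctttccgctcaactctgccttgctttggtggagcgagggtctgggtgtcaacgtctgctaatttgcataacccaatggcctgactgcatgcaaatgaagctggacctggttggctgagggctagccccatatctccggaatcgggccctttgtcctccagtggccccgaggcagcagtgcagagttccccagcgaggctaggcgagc
Gadd45b: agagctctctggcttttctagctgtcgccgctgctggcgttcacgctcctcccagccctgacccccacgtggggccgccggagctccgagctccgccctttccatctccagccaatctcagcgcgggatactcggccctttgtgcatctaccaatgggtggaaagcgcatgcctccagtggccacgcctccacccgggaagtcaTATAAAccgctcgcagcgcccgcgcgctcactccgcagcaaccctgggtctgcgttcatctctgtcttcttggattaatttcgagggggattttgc
These matches describe the letters in the windows and say nothing about binding. p53 sites outside the windows were not searched, and known sites in introns of Mdm2 and Gadd45a lie beyond them.

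Total counts were 12449529 to 19798188 per library. Nothing in the labels ties each library to its own mouse, and p-values here thus measure only the spread between samples, which may be technical. The share of counts from mitochondrially encoded genes was 14.1 to 32% in IR-Ori, 6.52 to 42.9% in IR and 10.3 to 42.8% in sham, and the authors' FPKM, a count scaled by exon length and by the library total, includes those counts in its total. The 10 hepatocyte marker genes summed to 27970 to 44200 FPKM in IR-Ori, 23470 to 35210 FPKM in IR and 14830 to 51380 FPKM in sham, with albumin among them. In whole liver, fewer cells of a type and less RNA per cell cannot be told apart.

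In IR livers, Cdkn1a, Btg2, Gadd45a and Gadd45b were higher than in sham livers, by 9.98-fold to 19.5-fold, while Trp53, Mdm2, Ccng1, Gadd45g, Plk3 and Phlda3 did not pass the test. Thus 4 of the 10 members were called higher and 0 lower in IR, at an adjusted p under 0.05 in edgeR's quasi-likelihood test. Over all 14595 tested genes 5.52% were called higher and 2.36% lower, 7.89% in either direction. At an unadjusted p under 0.05, edgeR had 7 members higher and 0 lower. DESeq2 and limma each called 4 of the 9 members they gave an adjusted p for higher and 0 lower. The 4 from DESeq2 were Cdkn1a, Mdm2, Gadd45a and Gadd45b, and it gave no p-value for Btg2. All 10 log2 fold changes were above 0, with a median of 1.45, against a median of 0.0032 over all tested genes. In IR-Ori livers against IR livers, 1 of the 10 members, Gadd45a, was lower, against 3.01% of all tested genes, and 0 were higher, against 0.596%, with 3.6% of tested genes called in either direction. The median log2 fold change of the members was -0.56 in IR-Ori against IR, against -2e-04 over all tested genes. In that comparison 5 members were lower and 0 higher at an unadjusted p under 0.05, and DESeq2 and limma each called 1 member lower and 0 higher. For counts at an unadjusted p, from DESeq2 or from limma, here and below, the share of all tested genes is not given. Such counts therefore cannot be set against a background. The IR libraries serve in both comparisons, so that a high value in an IR library raises one difference and lowers the other.

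**Figure D1:**
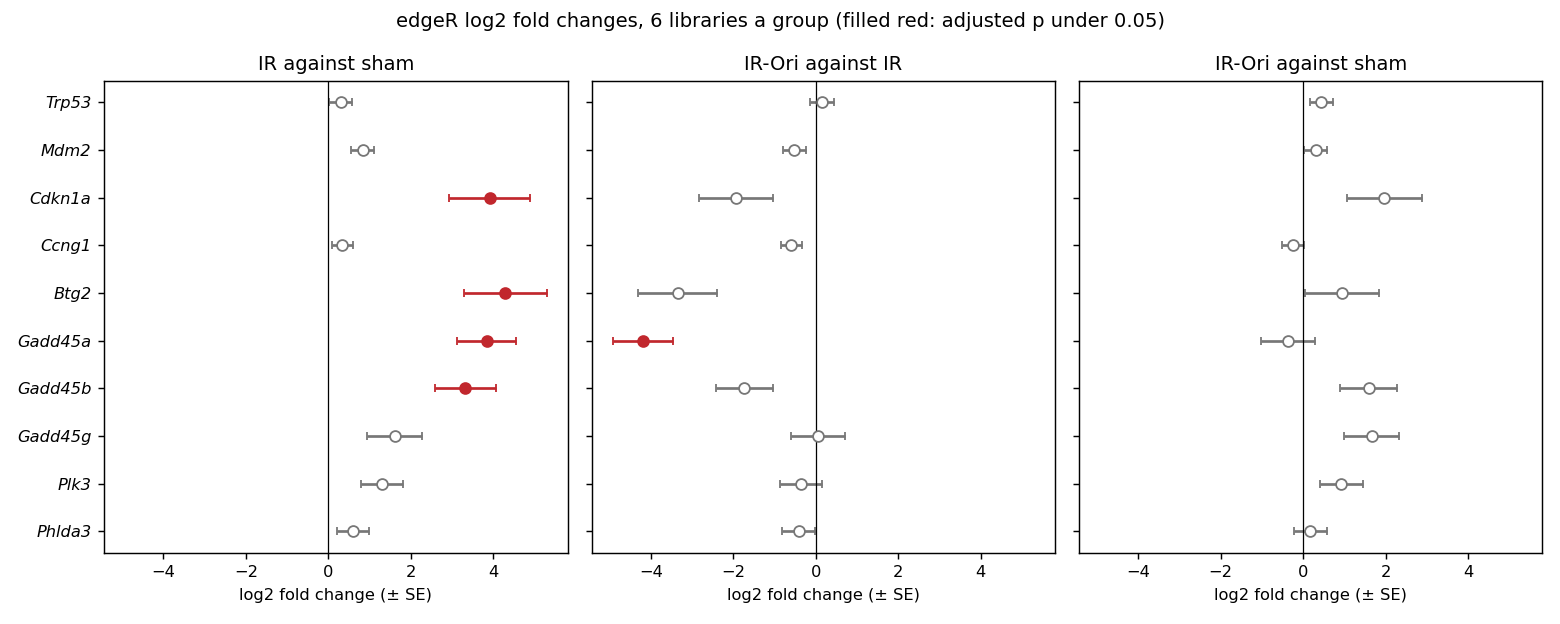
Log2 fold change of each of the 10 genes (horizontal axis, ± SE) in IR against sham, IR-Ori against IR and IR-Ori against sham, from 1 edgeR model of 18 libraries. Filled red points have an adjusted p under 0.05: Cdkn1a, Btg2, Gadd45a and Gadd45b in the first panel, Gadd45a in the second, none in the third.

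Trp53 itself passed the test in neither comparison. Its FPKM had a lowest, median and highest value of 4.84, 7.84 and 9.93 in IR-Ori, 2.35, 7.49 and 13.32 in IR, and 3.21, 5.44 and 7.93 in sham. The groups overlapped, and the IR group was the widest, with IR library 6 at the bottom and IR library 5 at the top. The log2 fold change was 0.29 ± 0.28 (SE, n = 6 each) in IR against sham, with an adjusted p of 0.579 in edgeR and a 95% interval of -0.30 to 0.89. For IR-Ori against IR it was 0.15 ± 0.28, with an adjusted p of 0.77 in edgeR and an interval of -0.44 to 0.74. Trp53 lies on chromosome 11 at 69471185 to 69482699 on the plus strand of GRCm39.

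Mdm2 encodes the ligase that marks p53 for degradation and is itself a p53 target, so it forms the negative feedback arm. Its FPKM had a lowest, median and highest value of 12.1, 16.5 and 18.7 in IR-Ori, 10.9, 23.1 and 44.3 in IR, and 6.61, 13.1 and 17.8 in sham. IR libraries 2, 4, 5 and 6 lay above every sham library, and IR libraries 1 and 3 lay among them. The log2 fold change in IR against sham was 0.83 ± 0.28 (n = 6 each), with an adjusted p of 0.0735 in edgeR. This lay close to the threshold, since DESeq2 gave 0.0408 and edgeR without IR library 1 gave 0.0431. Other choices moved it away, and edgeR with a replicate block gave 0.102. With each library left out in turn, the log2 fold change was 0.49 to 0.91 and the adjusted p 0.0431 to 0.204 in edgeR. In separate fits by the mitochondrial share of counts, the log2 fold change was 1.58 among libraries under 15%, with an adjusted p of 0.0345 in edgeR. Among libraries of 15% or more it was -0.0494, with an adjusted p of 0.931. Each fit had 3 IR and 3 sham libraries, and the difference between the fits was not tested. Over all 18 libraries, Mdm2 changed by -0.0052 (log2) for each 10 points of share within the groups, with an adjusted p of 0.975 in edgeR. With the share as a covariate, the log2 fold change in IR against sham was 0.83, with an adjusted p of 0.0692 in edgeR. Between IR-Ori and IR it was -0.53 ± 0.28, with an adjusted p of 0.247 in edgeR. The log2 ratio of Mdm2 to Trp53 within a library averaged 1.05 ± 0.24 in IR-Ori, 1.70 ± 1.33 in IR and 1.15 ± 0.11 in sham (SD, n = 6 each). It was nearly constant over the sham libraries, between 1.02 and 1.34, and reached 4.18 in 1 IR library.

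Cdkn1a was scarce in most sham livers. Its FPKM had a lowest, median and highest value of 0.47, 7.99 and 17.2 in IR-Ori, 4.25, 24.4 and 91.9 in IR, and 0.5, 0.68 and 7.47 in sham. Sham libraries 2 to 5 had 0.5 to 0.68 FPKM, while sham library 1, at 7.47, lay above IR library 1. Cdkn1a was 15.04-fold higher in IR than in sham, a log2 fold change of 3.91 ± 0.98 with an adjusted p of 0.02 in edgeR, and was higher in 35 of the 36 pairs of an IR and a sham library. Without sham library 1 the log2 fold change was 4.93, and without IR library 6 it was 3.11 with an adjusted p of 0.0493 in edgeR. The IR-Ori libraries lay far apart. Libraries 2, 3 and 4 had 13.8 to 17.2 FPKM, inside the IR range, whereas libraries 5 and 6 had 0.47 and 0.66 FPKM, below the sham median, and library 1 had 2.19. The log2 fold change in IR-Ori against IR was -1.94 ± 0.90 (n = 6 each), with an adjusted p of 0.194 in edgeR and a 95% interval of -3.82 to -0.06. It was -1.15 without IR library 6, and -0.75 with the mitochondrial share as a covariate. The gene lies on chromosome 17 at 29309950 to 29319701 on the plus strand and shares 1046 bases with 1700023B13Rik on the other strand, which averaged 11 counts a library against 765 for Cdkn1a. The sources used here do not say whether counting used the strand, so reads of such overlapping pairs cannot be told apart.

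Ccng1, which encodes cyclin G1, is like Cdkn1a a p53 target with a full p53 site in a start window, for Cdkn1a the upstream one. The levels of Ccng1 were much more even. Its FPKM had a lowest, median and highest value of 5.04, 5.67 and 10.03 in IR-Ori, 5.1, 9.57 and 17.7 in IR, and 3.28, 7.35 and 11.2 in sham. The groups overlapped throughout. The log2 fold change was 0.34 ± 0.26 in IR against sham, with an adjusted p of 0.467 in edgeR and an interval of -0.21 to 0.88, and -0.59 ± 0.26 in IR-Ori against IR, with an adjusted p of 0.173 in edgeR. Within each library, the log2 ratio of Cdkn1a to Ccng1 averaged 1.15 ± 1.10 in IR and -2.50 ± 1.61 in sham (SD, n = 6 each). The ratio was higher in IR in 35 of 36 pairs, with an exact two-sided permutation p of 0.00433 and an adjusted p of 0.0779 over the 18 ratio tests made, none of which passed the adjustment.

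Btg2 belongs to the BTG and TOB family of antiproliferative proteins, which recruit the deadenylase complex to mRNA. Its FPKM had a lowest, median and highest value of 1.46, 4.83 and 18.5 in IR-Ori, 8.41, 17.7 and 403 in IR, and 1.49, 4.02 and 9.23 in sham. IR library 6, at 403, stood more than an order of magnitude above the other IR libraries, which reached 22.2. Btg2 was 19.5-fold higher in IR than in sham, a log2 fold change of 4.28 ± 1.00 with an adjusted p of 0.0137 in edgeR. The call rested on IR library 6, without which the log2 fold change was 1.73 and the adjusted p 0.0717 in edgeR, although the gene was higher in 35 of the 36 pairs. Set against IR, the IR-Ori group had a log2 fold change of -3.35 ± 0.96, with an adjusted p of 0.0544 in edgeR, and without IR library 6 it was -0.80 with an adjusted p of 0.442. IR-Ori libraries 3 and 4, at 18.5 and 15.8 FPKM, lay inside the IR range. DESeq2 gave neither a p-value nor an adjusted p for Btg2 in any comparison.

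The GADD45 proteins are small stress-induced proteins that bind p21, PCNA and the kinase MAP3K4, which feeds the p38 and JNK pathways. Gadd45a is the p53 target of the family. Gadd45a had a lowest, median and highest FPKM of 1.99, 3.66 and 4.75 in IR-Ori, 6.67, 19.6 and 251 in IR, and 3.22, 4.16 and 7.02 in sham. Every IR-Ori library lay below every IR library, while the IR-Ori and sham ranges overlapped. Gadd45a was 18.3-fold lower in IR-Ori than in IR, a log2 fold change of -4.20 ± 0.73 with an adjusted p of 0.00533 in edgeR. It was the only member whose IR-Ori and IR groups did not overlap, against 1.1% of all tested genes that lay lower without overlap. In IR against sham it was 14.2-fold higher, a log2 fold change of 3.83 ± 0.71 with an adjusted p of 0.00347 in edgeR, in 35 of 36 pairs. In IR-Ori against sham the log2 fold change was -0.37 ± 0.66, with a 95% interval of -1.74 to 1.00. Without IR library 6, the log2 fold changes of Gadd45a were -2.84 in IR-Ori against IR and 2.47 in IR against sham, each with an adjusted p of 0.00479 in edgeR. Gadd45a lies on chromosome 6 at 67012080 to 67014441 on the minus strand and shares 859 bases with E230016M11Rik on the other strand, which averaged 38.1 counts against 651 for Gadd45a.

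Gadd45b is the family member best known from cytokine signalling and from the regenerating liver. Gadd45b had a lowest, median and highest FPKM of 2.68, 9.60 and 33.0 in IR-Ori, 7.77, 29.8 and 154 in IR, and 2.2, 4.96 and 6.43 in sham. It was the only member whose IR and sham groups did not overlap, against 2.04% of all tested genes that lay higher without overlap. Gadd45b was 9.98-fold higher in IR than in sham, a log2 fold change of 3.32 ± 0.73 with an adjusted p of 0.0104 in edgeR. Without IR library 6 it was 2.35, with an adjusted p of 0.0288. In IR-Ori against IR the log2 fold change was -1.73 ± 0.69, with an adjusted p of 0.139 in edgeR and a 95% interval of -3.16 to -0.30. Without IR library 6 it was -0.76 with an adjusted p of 0.491. IR-Ori libraries 1 to 4 lay inside the IR range, with libraries 3 and 4 the highest at 33.0 and 27.4 FPKM, while libraries 5 and 6, at 2.68 and 3.06, lay inside that of sham. The gene lies on chromosome 10 at 80765907 to 80768038 on the plus strand.

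Gadd45g was the most abundant of the 3 family members per length of transcript in every group, by the median FPKM. Gadd45g had a lowest, median and highest FPKM of 17.9, 179.2 and 407 in IR-Ori, 61.8, 179.1 and 379 in IR, and 10.9, 57.7 and 114 in sham. The IR-Ori and IR medians lay side by side, and each group overlapped with the others. The log2 fold change was 1.61 ± 0.67 in IR against sham, with an adjusted p of 0.145 in edgeR, and 0.05 ± 0.65 in IR-Ori against IR, with an adjusted p of 0.969 in edgeR and a 95% interval of -1.30 to 1.41. The log2 ratio of Gadd45g to Gadd45a within a library averaged 5.06 ± 2.04 in IR-Ori and 2.51 ± 1.78 in IR (SD, n = 6 each), and was higher in IR-Ori in 31 of 36 pairs. The exact two-sided permutation p of that ratio was 0.0455 and its adjusted p 0.244. The log2 ratio of Gadd45b to Gadd45a averaged 1.41 ± 1.71 in IR-Ori and 0.01 ± 0.95 in IR, with an exact permutation p of 0.106 and an adjusted p of 0.296.

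Plk3, a polo-like kinase of the stress response, had a lowest, median and highest FPKM of 49.1, 155.5 and 201 in IR-Ori, 69.5, 90.9 and 559 in IR, and 36.1, 74.2 and 100.1 in sham. Its IR mean rested on library 6, at 559, and the other 5 IR libraries reached 172. The log2 fold change was 1.30 ± 0.51 in IR against sham, with an adjusted p of 0.129 in edgeR, and 0.36 without IR library 6, with an adjusted p of 0.601. For IR-Ori against IR it was -0.37 ± 0.51, with an adjusted p of 0.67 in edgeR, and 0.56 without IR library 6. Phlda3, a p53 target that competes with the kinase AKT at membranes, was barely detected, with 4 to 31 counts a library. Its FPKM had a lowest, median and highest value of 0.3, 0.44 and 0.97 in IR-Ori, 0.49, 0.64 and 1.2 in IR, and 0.15, 0.46 and 0.81 in sham. Neither comparison of Phlda3 passed the test, with log2 fold changes of 0.59 ± 0.39 in IR against sham and -0.42 ± 0.39 in IR-Ori against IR and adjusted p of 0.387 and 0.518 in edgeR.

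**Figure D2:**
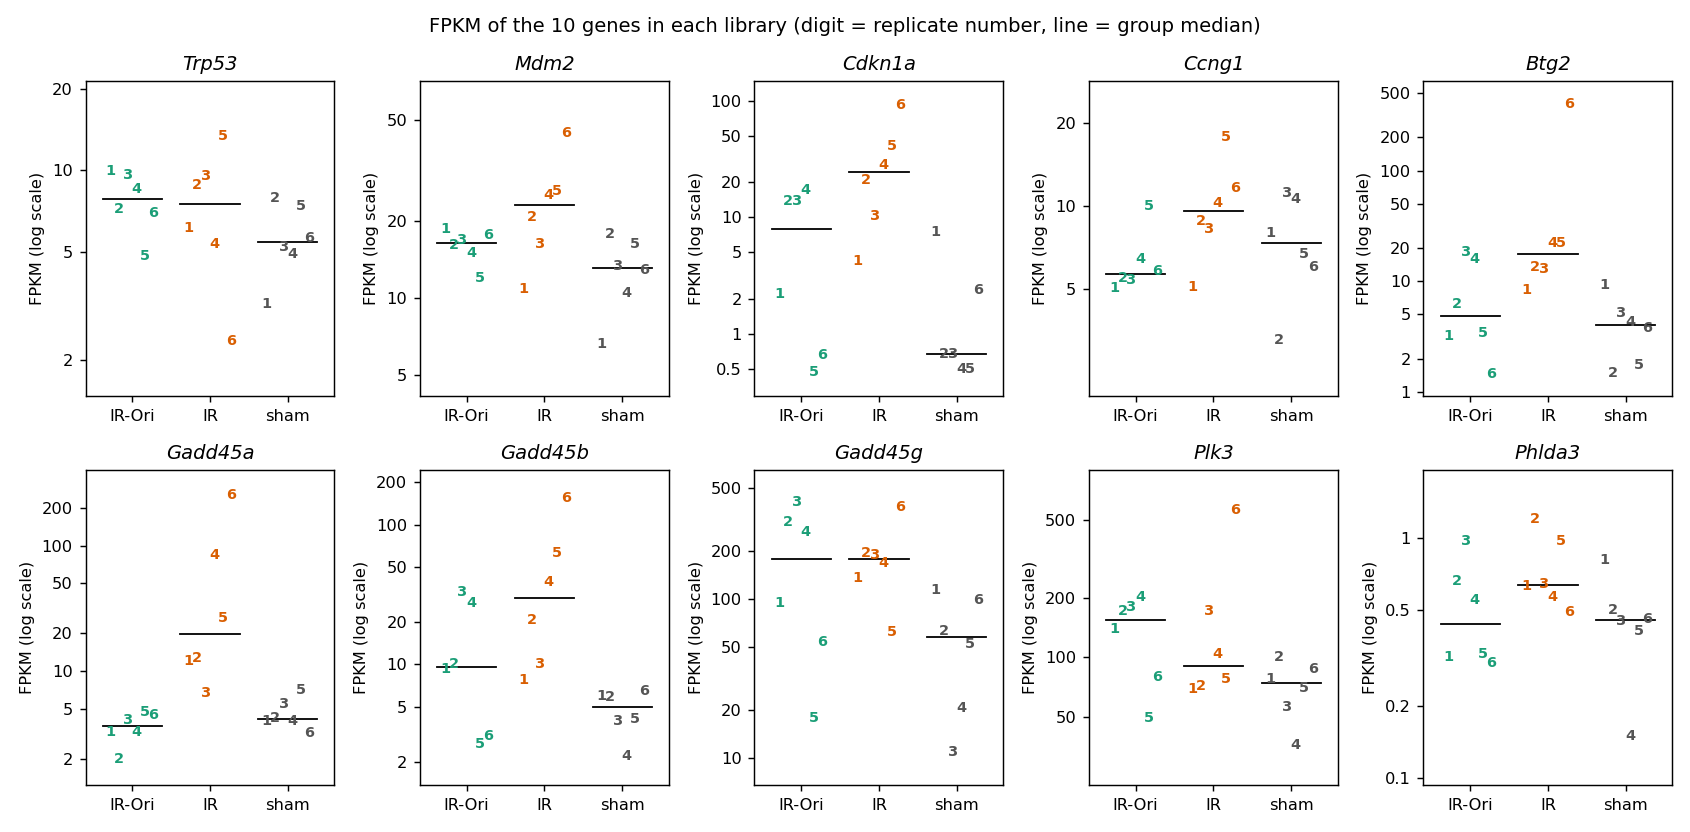
FPKM of the 10 genes on log axes, 1 panel a gene, in IR-Ori, IR and sham; each digit is the replicate number of a library and the line is the group median. IR library 6 is highest for 7 genes, and IR-Ori libraries lie below all IR libraries for Gadd45a alone.

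IR-Ori against sham, which asks how far livers with both treatments lie from the unclipped livers, gave 0 members higher and 0 lower in edgeR, with 0% of all tested genes called. At an unadjusted p under 0.05, 3 members were higher and 0 lower, with no share of all tested genes to set beside them, and DESeq2 and limma called 0. The 3 were Cdkn1a at a log2 fold change of 1.97 ± 0.91, Gadd45b at 1.59 ± 0.69 and Gadd45g at 1.66 ± 0.67 (n = 6 each). The median over the members was 0.68, against -0.0122 over all tested genes. In no member did the IR-Ori and sham groups lie apart without overlap, against 0.171% of all tested genes higher and 0.0343% lower without overlap.

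The IR-Ori libraries did not rank alike for every member, but many members shared their highest libraries. Libraries 2, 3 and 4 were the highest 3 of the IR-Ori group for 6 members, Cdkn1a, Btg2, Gadd45b, Gadd45g, Plk3 and Phlda3, and library 5 was the lowest for 6 members, not all of them the same. Gadd45a had other libraries on top, and its IR-Ori libraries all lay between 1.99 and 4.75 FPKM. In the IR group, libraries 4, 5 and 6 were the highest 3 for 6 members, Mdm2, Cdkn1a, Ccng1, Btg2, Gadd45a and Gadd45b. IR library 6 was the highest for 7 members and the lowest for 2, one of them Trp53 at 2.35 FPKM.

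**Figure D3:**
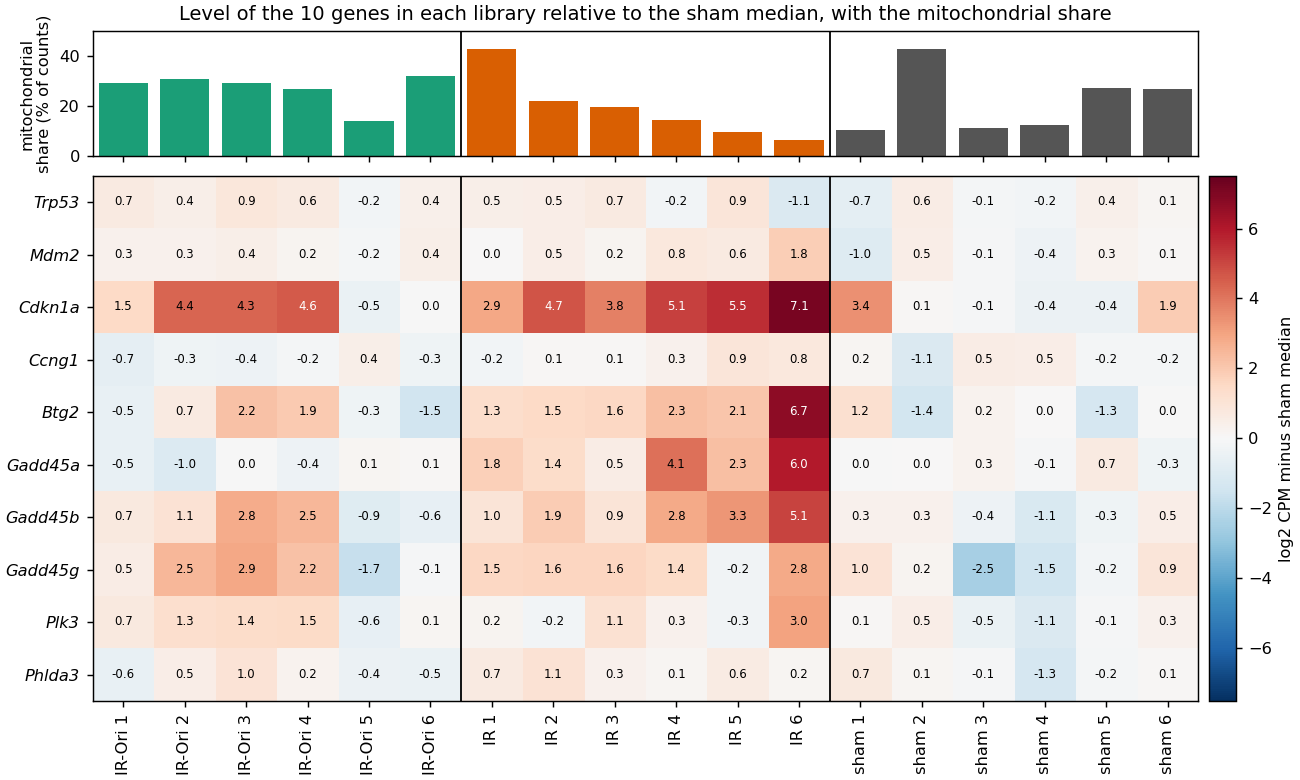
Log2 CPM (counts scaled to the library size) of each gene in each library minus its sham median (colour and printed value), below bars of the mitochondrial share of counts in percent. IR-Ori libraries 2, 3 and 4 hold the high Cdkn1a, Gadd45b and Gadd45g values of their group, and Gadd45a is below the sham median or just above it in all 6 IR-Ori libraries.

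IR libraries 4, 5 and 6 were also the 3 IR libraries with a mitochondrial share under 15%, and 3 sham libraries and 1 IR-Ori library lay under that share. Within the groups, Ccng1 was lower by 0.38 ± 0.06 (log2) for each 10 points of mitochondrial share, with an adjusted p of 4.84e-05 in edgeR, and Btg2 lower by 0.98 ± 0.32, with an adjusted p of 0.0193. The other 8 members did not pass that test, and over the nuclear genes tested 23.0% were lower and 19.8% higher with a larger share. Among libraries under 15%, the log2 fold changes in IR against sham were 4.12 for Cdkn1a, 4.74 for Gadd45a, 4.35 for Gadd45b and 4.62 for Btg2, with adjusted p of 0.0491, 0.014, 0.0096 and 0.0523 in edgeR. Among libraries of 15% or more they were 3.13, 1.12, 1.13 and 2.22, with adjusted p of 0.255, 0.254, 0.488 and 0.275, so that no member passed there. For Gadd45a in IR-Ori against IR, the log2 fold change was -1.64 with an adjusted p of 0.0617 among libraries of 15% or more. Among those under 15% IR-Ori had library 5 alone, which that fit assumes to vary like the other groups, and the value was -4.67 with an adjusted p of 0.141. With the share as a covariate over all 18 libraries, Gadd45a had a log2 fold change of -3.38 in IR-Ori against IR and 3.18 in IR against sham, with adjusted p of 0.0182 and 0.0072 in edgeR. Cdkn1a, Gadd45b and Btg2 also passed in IR against sham with that covariate, at 3.47, 2.84 and 3.39. What lies behind the mitochondrial share was not tested.

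**Figure D4:**
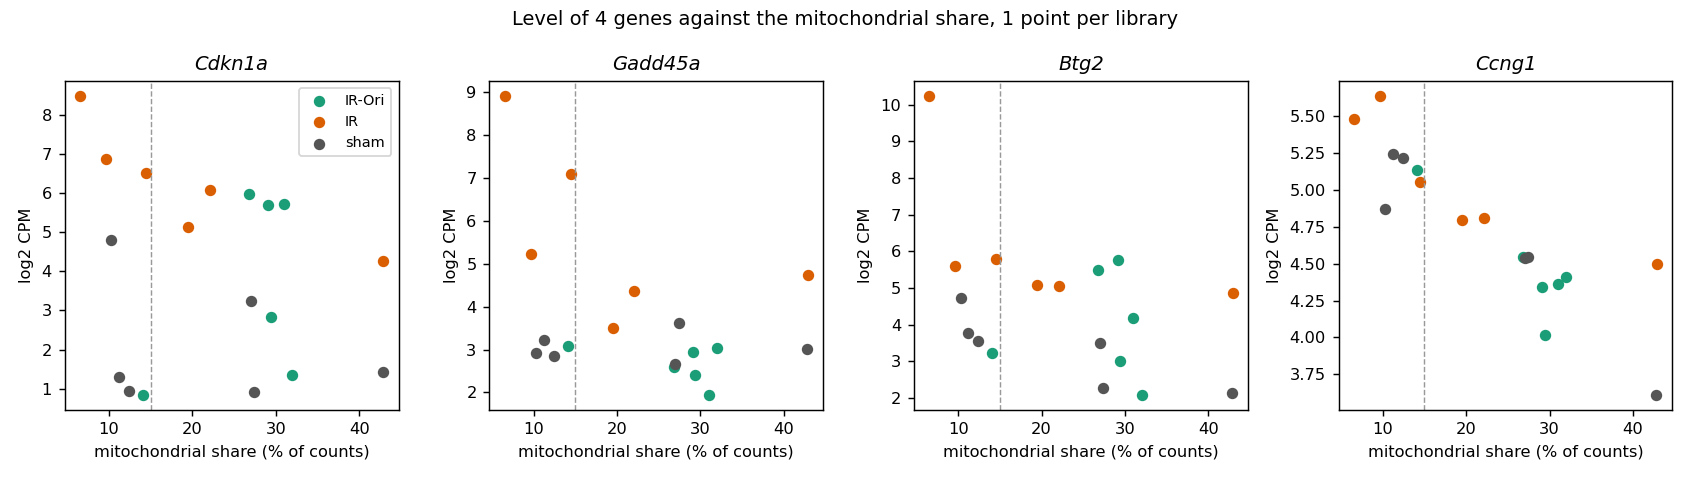
Log2 CPM of Cdkn1a, Gadd45a, Btg2 and Ccng1 (vertical axes) against the mitochondrial share of counts in percent, 1 point a library, with a dashed line at 15%. Ccng1 is lower in libraries with a larger share in each group, and the highest IR values of Cdkn1a, Gadd45a and Btg2 lie left of the line.

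Markers of neutrophils and monocytes moved in the same comparisons. Of 11 neutrophil markers 10 were tested and 10 were higher in IR than in sham, and 3 were lower in IR-Ori than in IR. Over all tested genes 5.52% were called higher in the first comparison and 3.01% lower in the second. In the second comparison 9 neutrophil markers were lower at an unadjusted p under 0.05, and DESeq2 called 7 lower. Their summed level was 7.73 to 64.9 FPKM in IR-Ori, 70.3 to 317 FPKM in IR and 4.03 to 27.1 FPKM in sham, and Ly6g, a defining neutrophil marker, was between 0 and 0.26 FPKM. Of 10 monocyte markers 9 were tested, of which 8 were higher in IR and 6 lower in IR-Ori than in IR. The list summed to 66.5 to 122 FPKM in IR-Ori, 96.2 to 136 FPKM in IR and 56.0 to 107 FPKM in sham. Most of that sum was Fn1, the 1 tested marker not called in IR against sham. Fn1 had 61.5 to 114 FPKM in IR-Ori, 55.2 to 117 FPKM in IR and 53.1 to 103 FPKM in sham, so the sums say little about the other markers. Of other marker lists, 3 of 10 for sinusoidal endothelium, 1 of 10 for stellate cells and 1 of 7 for bile duct cells were higher in IR, and 1 of the 7 was lower in IR-Ori than in IR, where DESeq2 called 4 of the 7, 1 endothelial and 1 stellate cell marker lower. In edgeR, 0 of 10 hepatocyte and 0 of 10 Kupffer cell markers were called in IR against sham or in IR-Ori against IR. Unadjusted p under 0.05 took 0 hepatocyte markers in either comparison, and of the Kupffer cell markers 0 in IR against sham and 2 higher and 1 lower in IR-Ori against IR, where DESeq2 called 1 higher. The part of these cells in the members' levels was not tested.

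A wider list of p53 targets was read beside the members. Of 39 further direct p53 target genes 33 were tested, and 4 were higher and 0 lower in IR than in sham, where 5.52% and 2.36% of all tested genes were. Plk2, a polo-like kinase, had a log2 fold change of 2.32 ± 0.55 with an adjusted p of 0.0149 in edgeR, and ranged from 2.97 to 47.3 FPKM in IR and from 1.54 to 3.73 FPKM in sham. Apaf1, the core of the apoptosome, was at 1.09 ± 0.26, Zmat3, an RNA-binding zinc finger protein, at 0.89 ± 0.24, and Aen, an apoptosis-enhancing nuclease, at 0.86 ± 0.24, with adjusted p of 0.0169, 0.0268 and 0.0305. The median of the 33 was 0.11 in IR against sham. Besides Apaf1 and Aen, the list holds further genes of p53-dependent cell death, of which 4 named after their values were seen did not pass, with log2 fold changes of 0.03 for Bax, 0.26 for Bbc3 (PUMA), 1.46 for Pmaip1 (NOXA) and -0.06 for Fas. In IR-Ori against IR, 2 were lower and 0 higher, where 3.01% and 0.596% of all tested genes were. They were Plk2 at -2.19 ± 0.55 and Sesn2, a stress-induced inhibitor of mTORC1 signalling, at -1.40 ± 0.38, with adjusted p of 0.0314 and 0.0464 in edgeR, and the median was -0.18. These counts depended on the tool, since limma on log2(FPKM + 1) called 0 of the 26 it tested in either comparison, and DESeq2 called 5 higher and 1 lower in IR against sham.

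**Figure D5:**
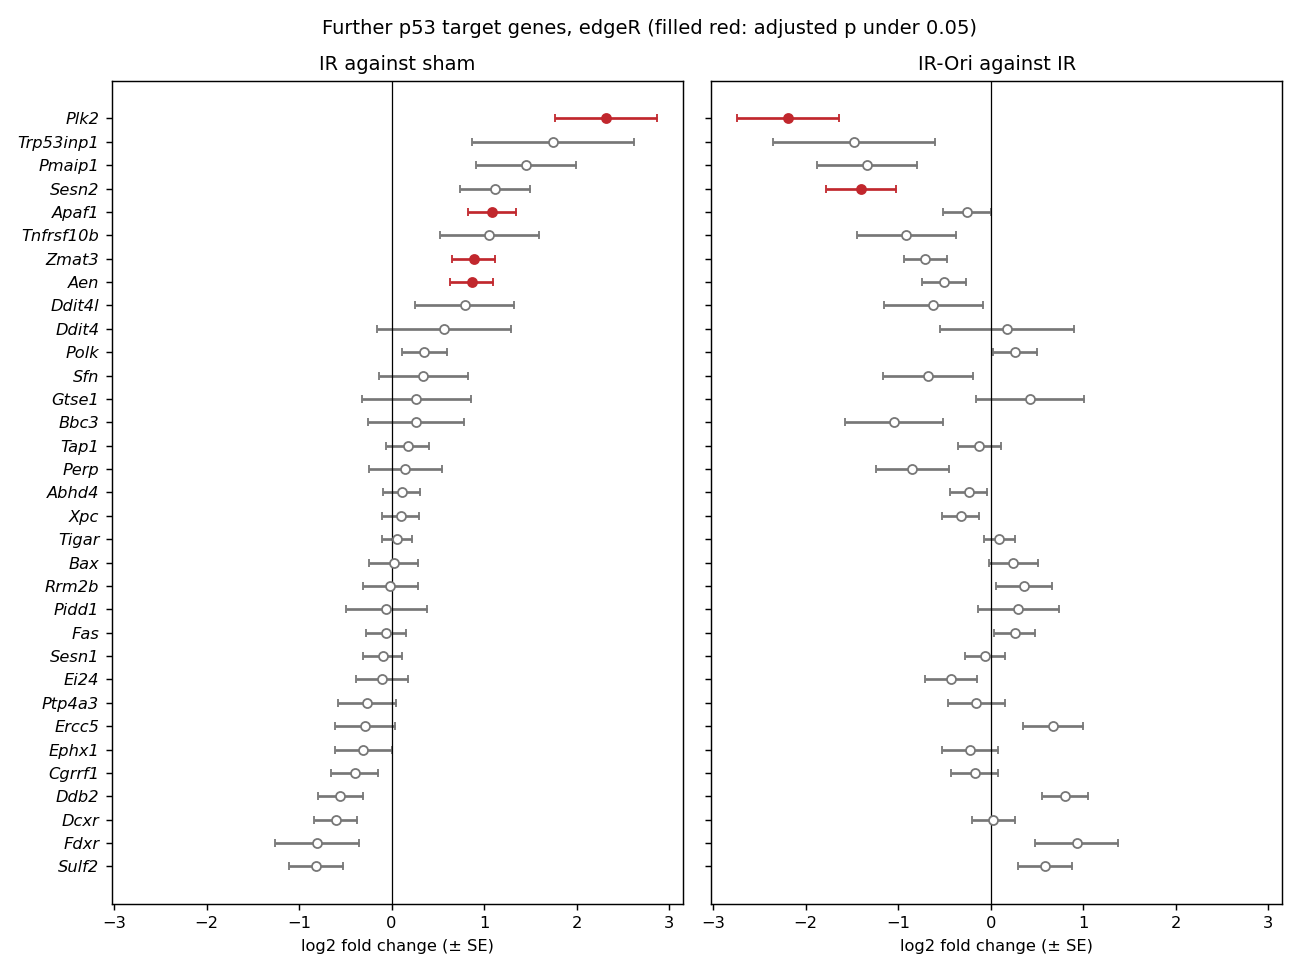
Log2 fold change (± SE) of the 33 further p53 target genes tested, in IR against sham and IR-Ori against IR, ordered by the first. Filled red points have an adjusted p under 0.05, which are Plk2, Apaf1, Zmat3 and Aen on the left and Plk2 and Sesn2 on the right; Bax and Fas lie near 0.

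The regulators and effectors around the members gave no call in edgeR in IR against sham or IR-Ori against IR. These were 17 kinases, ligases and partners of p53, 4 other inhibitors of cyclin-dependent kinases, 10 genes of G1 (cyclins, their kinases, E2f1 and Myc), 18 genes of S and M phase, and 8 kinases of the GADD45 to p38 and JNK route. At an unadjusted p under 0.05, each of these 5 lists had 1 or 2 genes higher and 0 or 1 lower in IR against sham, where DESeq2 and limma called 0. Between IR-Ori and IR each list had 0 to 4 higher and 1 to 3 lower at that p. There DESeq2 called 1 p53 partner and 1 kinase inhibitor lower, and limma called 0. Myc, a transcription factor of cell growth, had a log2 fold change of 1.59 ± 0.66 in IR against sham, with an unadjusted p of 0.0249 and an adjusted p of 0.143 in edgeR. Mki67, the marker of cycling cells, had a log2 fold change of 0.10 ± 0.47 in IR against sham, and Ccnd1, the G1 cyclin D1, -0.58 ± 0.49, neither past the threshold. Mki67 was scarce, at 0.08 to 0.5 FPKM in IR-Ori, 0.1 to 0.32 FPKM in IR and 0.07 to 0.37 FPKM in sham. A change at such levels is hard to detect.

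The paralogs of the members were also counted. Of 17 paralogs 13 were tested, and Btg4, Phlda2, Trp63 and Trp73 did not pass the filter on low counts. In IR against sham 4 were higher and 0 lower, where 5.52% and 2.36% of all tested genes were. In IR-Ori against IR 3 were lower and 0 higher, where 3.01% and 0.596% of all tested genes were. Btg1, from the family of Btg2, had 4.24 to 8.56 FPKM in IR-Ori, 10.4 to 112 FPKM in IR and 3.14 to 15.1 FPKM in sham. Every IR-Ori library lay below every IR library, with a log2 fold change of -2.71 ± 0.54 and an adjusted p of 0.0114 in edgeR, and in IR against sham it was 2.39 ± 0.53 with an adjusted p of 0.0105. Ccng2, which encodes cyclin G2, had 1.45 to 2.68 FPKM in IR-Ori, 2.76 to 23.6 FPKM in IR and 1.55 to 5.31 FPKM in sham. Its IR-Ori and IR libraries did not overlap either, and 1.1% of all tested genes lay lower in IR-Ori without overlap. Ccng2 had a log2 fold change of -2.12 ± 0.44 in IR-Ori against IR, with an adjusted p of 0.0146 in edgeR. In IR against sham it was 1.70 ± 0.44, with an adjusted p of 0.0219. The third called in both was Plk2, given above, and Btg3 was 4.59-fold higher in IR than in sham, with an adjusted p of 0.0134 in edgeR. Tob1, Tob2, Plk1, Plk4, Plk5, Phlda1, Mdm4, Cdkn1b and Cdkn1c passed in neither comparison, with log2 fold changes of -1.41 to 0.70 in IR against sham and -1.28 to 0.78 in IR-Ori against IR.

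The immediate early and AP-1 genes, which the stress kinases switch on within minutes, had 14 of 17 tested genes higher in IR than in sham and 13 lower in IR-Ori than in IR. Over all tested genes 5.52% were called higher in the first comparison and 3.01% lower in the second. The list had a median log2 fold change of 3.20 in IR against sham and -3.21 in IR-Ori against IR. Its summed level was 77.7 to 219 FPKM in IR-Ori, 215 to 3532 FPKM in IR and 78.0 to 132 FPKM in sham. Among them, Atf3 was at 7.15 ± 1.00 in IR against sham and -5.67 ± 0.93 in IR-Ori against IR, with adjusted p of 0.000637 and 0.00404 in edgeR.

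The tested genes most like a member were taken as those with the smallest root mean square difference of log2 CPM over the 18 libraries, each gene centred on its own mean. For Gadd45a they were Ccn1, a secreted matrix protein, at 0.43, and the heat shock chaperones Dnajb1 at 0.56 and Hsp90aa1 at 0.57, where the standard deviation of Gadd45a itself was 1.76. For Gadd45b they were Gdf15, a stress-induced secreted factor, at 0.60, the protease Adamts1 at 0.63 and Dbn1 at 0.64, with a standard deviation of 1.66 for Gadd45b. For Btg2 they were the phosphatase Dusp8 at 0.64, the histone gene H3f3b at 0.71 and Tiparp at 0.72, with a standard deviation of 1.91 for Btg2. For Cdkn1a the closest was Gadd45b at 1.10, followed by Thbd and Gdf15 at 1.10 and 1.12, where the standard deviation of Cdkn1a itself was 2.45. Ccn1, Dnajb1 and Hsp90aa1 had log2 fold changes of -3.90, -4.75 and -3.05 in IR-Ori against IR. They were picked for their likeness to Gadd45a over these same libraries. Their lower values in IR-Ori thus follow from the choice and are no separate result.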

How the data were processed

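Liver RNA of 18 libraries, 6 each in IR-Ori, IR and sham, was sequenced, and groups were taken from the labels. Per the submitters' processing notes, cutadapt 1.9.1, HISAT2 2.2.1, DESeq2 and build GRCm39 were used. The sources used here do not give how reads were counted, with or without strand, or on which annotation. The authors deposited a whole-number count and an FPKM per gene and library, and dividing counts by exonic size and by the total of the library returned the deposited FPKM within 0.005, so the total includes mitochondrial genes. Libraries of a group differed by a chi-square of at least 16 per gene, so none repeated another.

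Tests on counts used edgeR 4.0.16 (R 4.3.3) with filterByExpr at a minimum count of 10 and a minimum total of 15, TMM scaling, 1 quasi-likelihood model of 3 groups and 15 residual degrees of freedom. P-values are two-sided and Benjamini-Hochberg adjusted over 14595 genes per comparison at 0.05. The common biological coefficient of variation was 0.3984. The standard error is the log2 fold change divided by the square root of F. Ratios between members used log2(FPKM + 0.1) and an exact permutation test over 924 splits, whose smallest p is 0.002165. The procedure was tested on simulated data. Over the 3 comparisons it recovered 28 to 34% of simulated log2 changes of 1 and 85 to 87% of those of 2. Of its calls there, 2.5 to 5.74% were false. Alternatives were DESeq2 1.42.0, limma 3.58.1 with log2(FPKM + 1) where at least 6 libraries had 1 FPKM or more, other scalings, no filter, a replicate block, the mitochondrial share, and leaving out each library.

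Members and lists were chosen with earlier results of these data known. Named were all 10 members, up to 4 called genes of each list with the smallest p, all paralogs, and the 3 genes most like each called member. Bax, Bbc3, Pmaip1, Fas, Mki67, Ccnd1, Myc, E2f1 and the cell type markers were named outside that rule, after their values were seen.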

Additional observations from a re-analysis of the deposited data

Results flagged for a closer look

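Within each group of 6, the highest and the lowest library of each member were compared with the other 5, and 5 of the 30 sets held a library far from the others by Dixon's test. A rate of about 1 in 20 by chance holds for independent sets of normally distributed values. The test was run on FPKM and not on log values, and the sets share libraries. The 5 flags therefore cannot be weighed against that rate. In 3 of the 5 the library was IR library 6, with 402.97 FPKM of Btg2 against 22.18 in the next IR library, 250.67 FPKM of Gadd45a against 84.1, and 559.36 FPKM of Plk3 against 171.79. That library had the lowest mitochondrial share of all, 6.52% of counts. IR-Ori library 5 stood apart for Ccng1, at 10.03 FPKM against 6.45 in the next IR-Ori library, and had the lowest mitochondrial share of its group, 14.1%. Sham library 1 stood apart for Cdkn1a, at 7.47 FPKM against 2.4 in the next sham library. What sets these libraries apart was not tested.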

How the results depend on the processing

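The 4 members higher in IR than in sham became 3 to 5 when each library was left out in turn, with Btg2 lost without IR library 6 and Mdm2 added without IR library 1. The 1 member lower in IR-Ori than in IR became 1 to 2 when a library was left out, with Btg2 added without IR library 1, 2 or 3, and 2 with no filter on low counts. By exact permutation of log2(FPKM + 1), 0 members were called in either comparison. The smallest possible p of 0.002165 became 0.145 in IR-Ori against IR and 0.0682 in IR against sham once adjusted, so no tested gene passed. These adjusted values depend on how many genes reached the smallest p in these data. Among libraries with a mitochondrial share of 15% or more, 0 members were called in either comparison, and under 15% 0 were lower in IR-Ori than in IR, where IR-Ori had library 5 alone. That fit has no replicate of IR-Ori, assumes that library to vary like the others, and does not bear on the stability of the results. Same-numbered libraries had correlations of -0.441 to 0.418 over the 3 pairs of groups, and 6 of 18 pairs were over 0.1. Between IR-Ori and IR the correlations were 0.0124 to 0.418. IR-Ori libraries 1, 2 and 3 each correlated best with the IR library of the same number. The labels name no pairing or batch, and whether these libraries share one was not tested. With the replicate block 1 member and 1 further p53 target were higher in IR than in sham, and 0 further p53 targets were lower in IR-Ori than in IR, where upper quartile scaling gave 1.

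Signs below turned only for values past no threshold. In IR-Ori against IR, Gadd45g was -0.45 or -0.46 with limma at a pseudocount of 1 or 0.1 and -0.45 by permutation, -0.0603 with the share as a covariate, -3.49 under 15%, and -0.30 to 0.44 with a library left out. Plk3 was 0.0629 with the replicate block, 0.62 at 15% or more and -0.55 to 0.56 with a library left out. Trp53 was -0.0671 with the covariate, -0.31 under 15% and -0.0258 to 0.30 with a library left out. At 15% or more, Mdm2 was 0.12 and Gadd45b 0.46, and Mdm2 in IR against sham was -0.0494. In IR-Ori against sham under 15%, Cdkn1a was -2.66, Gadd45a 0.0723, Gadd45b -0.60, Gadd45g -1.48, Btg2 -0.90, Phlda3 -0.52, Ccng1 0.0152 and Plk3 -0.22; Ccng1 was 0.0631 at 15% or more, and Phlda3 was -0.14 to 0.39 with a library left out. The causes were not tested.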
